A study of Homo sapiens with 6 samples.

Results

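The genes described here are 29 enzymes and enzyme subunits of the tricarboxylic acid (TCA) cycle, of the pyruvate and malate reactions that refill or drain it, and of the glutamate reactions that bring glutamine carbon into it. They were taken by symbol from a written list of CS, ACO1, the IDH, OGDH-complex, SUCL, SDH, FH, MDH and malic enzyme genes, PC, PCK2, GLUD1, GOT1, GOT2 and GPT2, and all 29 were found among the 60708 genes of the count table. RNA was sequenced from 6 samples of Caki-1, a human clear cell carcinoma line that carries wild-type VHL. The 3 vector control (VC) samples came from cells infected with the lentiviral CRISPR vector alone, and the 3 VHL-KO samples from cells infected with the same kind of vector carrying a guide RNA against VHL. Infected cells were selected with puromycin, and for the knockout, the surviving cells were then spread over multi-well plates and clones without VHL protein were picked by immunoblot. Which guide was used, and whether the VHL-KO samples come from 1 clone, is not given in the sources used here, so the effect of the clone and that of the knockout cannot be told apart. Whether the replicates were separate cultures is not given either, so p-values measure the spread between these samples, which may be technical.

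The deposited values are reads counted per gene. They summed to 31789923, 28463579 and 34881739 in VC 1 to 3 and to 29139722, 22805385 and 22628246 in VHL-KO 1 to 3. Levels are given as CPM, read counts scaled to a library of fixed size with TMM factors, with mean ± SD over n = 3 samples per group. Differences are log2 fold changes of VHL-KO over VC with their standard error (SE), from edgeR's quasi-likelihood test, with p adjusted by the Benjamini-Hochberg method over the 17401 genes that reached 10 reads in 1 sample or more. A gene is called higher or lower at an adjusted p under 0.05.

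VHL itself had 1454, 1124 and 1522 reads in VC 1 to 3 and 929, 657 and 650 in VHL-KO 1 to 3. Its level was 40.2 ± 2.38 CPM in VC and 31.9 ± 2.49 CPM in VHL-KO cells, a log2 fold change of -0.33 (SE 0.11, adjusted p = 0.0109 in edgeR's quasi-likelihood test), and the groups did not overlap. Small edits by Cas9 can leave a transcript in place, so this level is no measure of the edit. The call was lost with upper quartile factors (-0.22), with offsets for GC content and transcript length (-0.038), without VC 1 (-0.28) and without VHL-KO 2 (-0.30), and the fall was larger with library size alone (-0.53).

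Of 10 targets of the hypoxia-inducible factors (HIF), the transcription factors whose alpha subunits VHL marks for degradation, 9 were higher and 1 lower in VHL-KO cells. Among all tested genes 28.5% were called higher and 31.2% lower. CA9, a carbonic anhydrase, had 0, 0 and 2 reads in VC 1 to 3 and 288, 247 and 233 in VHL-KO 1 to 3. NDRG1 rose from 11.7 ± 0.481 to 761 ± 28.5 CPM, and VEGFA, an angiogenic growth factor, from 27.2 ± 2.25 to 152 ± 15.8 CPM. ADM, SLC2A1, LDHA, BNIP3, ANKRD37 and PFKFB4 also rose, by 3.55, 0.70, 1.41, 1.23, 1.96 and 2.42 on the log2 scale. EGLN3, a HIF prolyl hydroxylase, went the other way, from 1.72 ± 0.323 to 0.731 ± 0.309 CPM (log2 -1.26, SE 0.35).

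Of 8 kidney epithelial markers, 6 were tested, and their summed level was 1538, 1740 and 1397 CPM in VC and 2253, 2184 and 2190 CPM in VHL-KO cells. The keratin KRT8 was the most abundant of them, PAX2 and LRP2 had no reads in any sample, and EPCAM was low at 1.33 ± 0.299 CPM in VC and 0.491 ± 0.263 CPM in VHL-KO cells. PAX8, CDH16, KRT8 and KRT18 were called higher (log2 0.52, 3.42, 0.51 and 0.37) and EPCAM lower (-1.42), while CDH6 (-0.026) was not called. With GC and length offsets KRT8 (0.064) and KRT18 (-0.12) lost their calls and CDH6 gained one (0.49), and KRT18 was also lost with library size alone (0.18). CDH6 changed sign without VC 3, to 0.095.

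The 3 leukocyte markers stayed at or under 4 reads in every sample, with CD3E at 0 throughout. Among 3 endothelial markers, VWF and CDH5 were at or near 0 and PECAM1 reached 0.423 CPM in VHL-KO cells, a call that was lost without VC 3 (2.12). Fibroblast markers summed to 43.3, 47.2 and 37.1 CPM in VC and to 29.8, 27.1 and 25.5 CPM in VHL-KO cells, led by COL1A1 and with COL1A2 at 1 read or none per sample. COL1A1 and PDGFRB fell (log2 -0.42 and -1.94), and the part of these markers in the results below was not tested. In these bulk samples, fewer cells of a type and less RNA per cell cannot be told apart.

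The TCA cycle runs in the mitochondrial matrix, where acetyl-CoA from pyruvate is joined to oxaloacetate as citrate and oxidised back to oxaloacetate, with 2-oxoglutarate, succinate, fumarate and malate as intermediates. Carbon drawn off for synthesis is replaced by carboxylation of pyruvate and by glutamine, which is deaminated to glutamate and then to 2-oxoglutarate. In clear cell renal carcinoma the cycle is known for its links to VHL, since the prolyl hydroxylases that mark HIF for VHL use 2-oxoglutarate and are inhibited by succinate and fumarate, and since HIF raises the kinases that shut pyruvate dehydrogenase.

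Most of the 29 genes were lower in VHL-KO cells. By edgeR's quasi-likelihood test 21 were lower, 3 were higher and 5 were not called, where 59.7% of all tested genes were called, 31.2% lower and 28.5% higher. At least 2-fold lower were 6 of the 29 (ME2, IDH3A, FH, SUCLG2, ME1 and IDH1), against 12.3% of all genes, and PC alone was at least 2-fold higher, against 13.9%. With offsets that remove the trend of fold change with GC content and transcript length, described below, only FH (-1.15) stayed at least 2-fold lower, against 9.9% of all genes. The others were then at -0.92 (ME2), -0.96 (IDH3A), -0.86 (SUCLG2), -0.63 (ME1), -0.72 (IDH1) and 0.78 (PC), all still called, and SDHA (1.01) was the only one at least 2-fold higher, against 12.1%. The groups did not overlap for 24 of the 29, against 64.7% of all genes, and in 21 of these the VHL-KO samples were the lower ones, against 33.5%. The median log2 fold change of the 29 was -0.64, and that of all tested genes was -0.01. Each of the 29 had at least 144 reads in every sample, so the filter on low counts removed none.

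All 3 VHL-KO samples showed the lower level. Summed over the 29 genes, the level was 2734, 2799 and 2781 CPM in VC 1 to 3 and 2138, 2081 and 2172 CPM in VHL-KO 1 to 3. In each VHL-KO sample 25 of the 29 genes lay below their VC mean, against 21, 13 and 12 in VC 1 to 3. The median log2 distance from that mean was -0.55, -0.67 and -0.67 in VHL-KO 1 to 3, where the median over all tested genes was -0.01, -0.02 and -0.03.

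**Figure D1:**
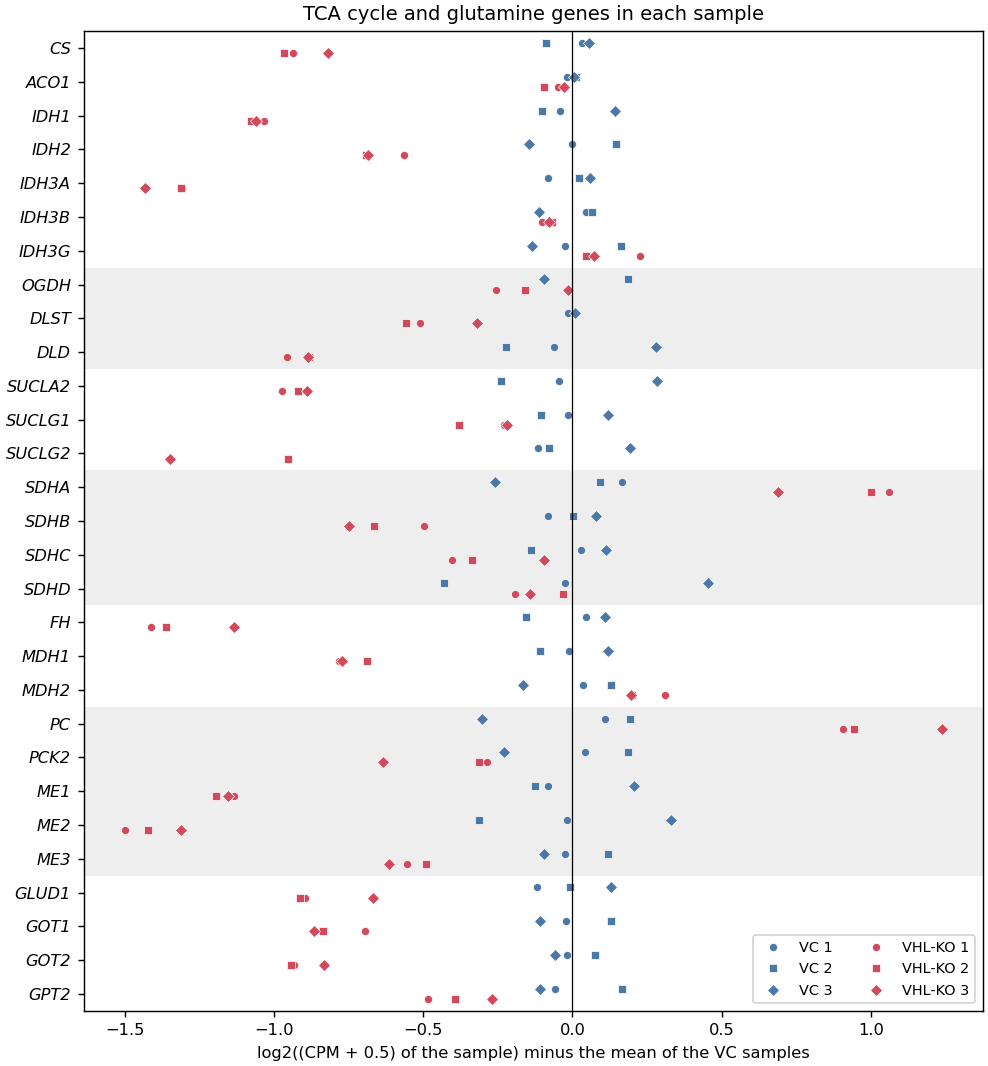
Level of each of the 29 genes in each sample, as log2 of CPM plus 0.5 minus the mean of the 3 VC samples on the same scale; blue marks are VC, red marks VHL-KO, and the marker shape gives the replicate. Red marks lie left of all blue marks for 21 genes, right of them for SDHA, MDH2 and PC, and among them for 5.

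Scaling changed the calls of 7 genes with small fold changes (ACO1, IDH3B, OGDH, SUCLG1, SDHC, MDH2 and PCK2). With library size alone, which moves the median of all genes to -0.20, 24 of the 29 were lower and 2 higher, with a median of -0.83. With upper quartile factors, which move it to 0.10, 18 were lower and 3 higher, with a median of -0.53. Over all genes 47.7% of the calls were in the higher direction under TMM scaling, a share that became 35.8% for library size alone and 55% for upper quartile factors.

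Promoters were looked at for ME2, IDH3A, FH and SUCLG2, taken by the size of their fold change, and for PC, which was chosen after its values were seen. In the main fit the first 4 had the largest fold change among those whose groups did not overlap, and PC had the largest rise. With GC and length offsets SDHA (1.01) stood among the largest 4 in place of SUCLG2 (-0.86). ME2 (ENSG00000082212.13) lies at chr18:50879080-50954257, IDH3A (ENSG00000166411.14) at chr15:78131498-78171945, FH (ENSG00000091483.8) at chr1:241497511-241519799, SUCLG2 (ENSG00000172340.15) at chr3:67360460-67654612 and PC (ENSG00000173599.15) at chr11:66848417-66958386 of GRCh38 (GENCODE 44). Their promoters are shown because the 29 genes mostly moved one way. They are the 250 bases before the RefSeq start site on GRCh38.p14, 5′ to 3′ on the gene's strand: chr18:50878868-50879117 and chr15:78149112-78149361 on the plus strand, and chr1:241519756-241520005, chr3:67654613-67654862 and chr11:66958384-66958633 on the minus strand. The RefSeq starts of IDH3A, ME2, FH and PC lie inside their GENCODE spans. All of the IDH3A window and the ends of the ME2, FH and PC windows thus lie within the annotated gene. The HIF core matches of FH lie in that end. Capitals mark matches, on either strand, to the HIF core (ACGTG or GCGTG), to an NRF1 motif (GCGC, any 2 bases, GCGC) and to an ETS motif of the GABPA type (CCGGAAG), the last 2 being motifs of factors known for nuclear genes of mitochondrial proteins.
ME2: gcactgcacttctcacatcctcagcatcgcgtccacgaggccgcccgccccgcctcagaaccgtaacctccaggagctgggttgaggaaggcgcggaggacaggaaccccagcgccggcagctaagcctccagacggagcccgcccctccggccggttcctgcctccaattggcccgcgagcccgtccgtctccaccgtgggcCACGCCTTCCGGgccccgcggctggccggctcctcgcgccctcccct
IDH3A: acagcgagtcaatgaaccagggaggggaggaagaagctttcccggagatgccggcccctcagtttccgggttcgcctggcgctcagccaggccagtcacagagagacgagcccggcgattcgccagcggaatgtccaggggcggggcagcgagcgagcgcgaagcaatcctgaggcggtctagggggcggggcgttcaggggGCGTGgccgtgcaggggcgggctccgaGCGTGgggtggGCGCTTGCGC
FH: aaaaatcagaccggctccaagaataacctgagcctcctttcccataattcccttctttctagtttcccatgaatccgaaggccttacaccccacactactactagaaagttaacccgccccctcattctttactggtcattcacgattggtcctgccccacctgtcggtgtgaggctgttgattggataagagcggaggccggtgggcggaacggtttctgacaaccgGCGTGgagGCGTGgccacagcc
SUCLG2: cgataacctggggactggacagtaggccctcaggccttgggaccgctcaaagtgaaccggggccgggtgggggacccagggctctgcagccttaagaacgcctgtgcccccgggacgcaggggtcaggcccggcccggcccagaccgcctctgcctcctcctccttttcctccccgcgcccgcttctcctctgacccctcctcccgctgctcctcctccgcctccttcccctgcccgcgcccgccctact
PC: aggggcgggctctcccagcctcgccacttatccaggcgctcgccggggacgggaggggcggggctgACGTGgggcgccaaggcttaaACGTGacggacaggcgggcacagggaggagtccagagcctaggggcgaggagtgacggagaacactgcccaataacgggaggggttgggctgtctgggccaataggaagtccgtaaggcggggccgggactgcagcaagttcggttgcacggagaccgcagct

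The HIF core stood once in the ME2 window, next to an ETS match, 2 times each in the IDH3A, FH and PC windows, and not in that of SUCLG2. The IDH3A window also ended in an NRF1 match. RefSeq windows were matched for 26 of the 29 genes, with no entry for GPT2, OGDH and SDHC. Of the 26, 18 held a HIF core, 6 an NRF1 motif and 7 an ETS motif. Of all 21479 promoters of the same length, 49.5% held a HIF core, 9.22% an NRF1 motif and 10.7% an ETS motif. Among the 19 genes called lower that have a window, 13 held a HIF core, 3 an NRF1 motif and 3 an ETS motif. The E-box CACGTG, which contains the HIF core, was found in 1 of the 26 (ME3, against 7.37% of all promoters), and the amino acid response motif TGATGNAA in 1 (GOT1, against 2.37%). A match is a run of letters and not a bound site.

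From citrate to 2-oxoglutarate, 4 of the 7 genes were lower and 3 were not called. Citrate synthase, CS, which opens the cycle, stood at 227, 209 and 230.5 CPM in VC 1 to 3 and at 116, 113 and 126 CPM in VHL-KO 1 to 3. Every VHL-KO sample lay far below every VC sample, and the log2 fold change was -0.91 (SE 0.090, adjusted p = 4.57e-09 in edgeR's quasi-likelihood test). ACO1, the cytosolic aconitase that also acts as an iron-regulatory RNA-binding protein, had 355 ± 4.22 CPM in VC and 341 ± 8.14 CPM in VHL-KO cells and was not called (-0.057, SE 0.083), although its samples did not overlap. Its sign turned with upper quartile factors (0.055) and with GC and length offsets (0.22), and with library size alone it was called lower (-0.25).

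The subunits of the NAD-linked isocitrate dehydrogenase parted. IDH3A, the catalytic alpha subunit, was at 42.4, 45.6 and 46.8 CPM in VC 1 to 3 and at 17.8, 17.8 and 16.3 CPM in VHL-KO 1 to 3. All VHL-KO samples lay far below all VC samples (log2 -1.38, SE 0.11, adjusted p = 1.75e-10 in edgeR's quasi-likelihood test). IDH3B and IDH3G, its beta and gamma partners, overlapped between groups and were not called, at 77.4 ± 5.08 CPM in VC and 72.9 ± 0.821 CPM in VHL-KO cells for IDH3B (-0.085, SE 0.094) and 121 ± 12.8 CPM in VC and 130.4 ± 9.004 CPM in VHL-KO cells for IDH3G (0.11, SE 0.10).

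The values of both partners depended on the scaling and on offsets that take GC content and length together, so neither property can be singled out. IDH3B reached 0.026 with upper quartile factors and was called lower with library size alone (-0.28) and with GC and length offsets (-0.38). IDH3G was negative with library size alone (-0.079), was called lower with the offsets (-0.43) and was called higher without VC 2 (0.22). With single samples left out IDH3G lay between 0.054 and 0.22, and IDH3B between -0.12 and -0.034.

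Per transcript length, as TPM (reads divided by transcript length and scaled to the same sum in each sample), IDH3A was also the scarcest of these 3 subunits in VC, at 21.6 TPM against 98.6 for IDH3B and 177 for IDH3G. IDH3B and IDH3G, which overlapped in CPM, were lower without overlap in TPM, at 71.4 and 147 TPM in VHL-KO cells. TPM carries no TMM factors, and how many of all genes were lower in TPM was not counted. The per-length ratio of IDH3A to IDH3B was 0.201, 0.213 and 0.247 in VC and 0.0934, 0.0913 and 0.0844 in the VHL-KO samples, a log2 difference of -1.29. The ratio to IDH3G moved by -1.49 on the log2 scale. In both the groups did not overlap, and the exact permutation p, two-sided, was 0.1, the smallest that 3 against 3 samples allow. The differences in these ratios shrank to -0.57 and -0.53 with GC and length offsets. Exons of CIB2 and ACSBG1 on the other strand cover 38.8% of the exonic bases of IDH3A, and without stated strandedness their reads cannot be told apart from its own. Most of that overlap is with ACSBG1, which had no reads in any sample. A count of 0 is not read here as absence, and the part of reads from the other strand was not tested.

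The NADP-linked isocitrate dehydrogenases fell in both compartments. IDH1, the cytosolic and peroxisomal enzyme, was at 68.2, 65.5 and 77.6 CPM in VC 1 to 3 and 34.1, 33.04 and 33.4 CPM in VHL-KO 1 to 3. IDH2, the mitochondrial one, was at 56.6, 62.7 and 51.2 and 38.1, 34.9 and 35.04 CPM. Neither overlapped between groups. The fold changes were -1.07 (SE 0.10) and -0.66 (SE 0.11), with adjusted p of 2.75e-09 and 9.36e-06 in edgeR's quasi-likelihood test. The per-length ratio of IDH1 to IDH2 was 1.38, 1.20 and 1.74 in VC and 1.02, 1.09 and 1.09 in the VHL-KO samples, without overlap. The shift was not seen with GC and length offsets: the log2 difference of -0.41 became 0.054, with IDH1 at -0.72 and IDH2 at -0.77. Without the offsets and with single samples left out, the difference lay between -0.54 and -0.27.

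In the 2-oxoglutarate dehydrogenase complex, which makes succinyl-CoA, DLST and DLD were lower and OGDH was not called. OGDH, the E1 component that binds 2-oxoglutarate, was at 119, 145 and 119 CPM in VC and 106, 114 and 126 CPM in VHL-KO samples. Its groups overlapped (log2 -0.15, SE 0.10), and it was called lower only with library size alone (-0.34) and with the offsets (-0.22). Its value was near 0 without VC 2 (-0.029) and with upper quartile factors (-0.035). DLST, the succinyltransferase core, went from 103 ± 1.01 to 75.01 ± 6.75 CPM (-0.46, SE 0.094). DLD, the lipoamide dehydrogenase shared with pyruvate dehydrogenase, was at 83.7, 74.8 and 106 CPM in VC and 44.8, 47.1 and 46.95 CPM in VHL-KO samples. VC 3 was the highest DLD sample and the VHL-KO samples lay close together below all VC samples (-0.93, SE 0.11). The DLD transcript has 37.9% GC. With GC and length offsets, which were not tested apart, its fold change shrank to -0.31, still called. The log2 difference in the ratio of DLD to OGDH, -0.77 per length, was then -0.095.

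All 3 genes of succinyl-CoA synthetase, which releases succinate while making a nucleoside triphosphate, were lower. The subunit that sets GTP as the product, SUCLG2, was at 28.00, 28.7 and 34.8 CPM in VC and 11.6, 15.4 and 11.6 CPM in VHL-KO samples. The ATP-type subunit, SUCLA2, was at 27.3, 23.9 and 34.5 and 14.2, 14.7 and 15.01 CPM. In both, every VHL-KO sample lay below every VC sample, with fold changes of -1.25 (SE 0.14) and -0.97 (SE 0.14). With GC and length offsets these were -0.86 and -0.53, both called. SUCLG1, the alpha subunit common to both forms, moved less, from 67.9 ± 5.43 to 55.97 ± 3.45 CPM (-0.28, SE 0.10). Its call was lost with upper quartile factors (-0.17), without VC 1 (-0.28), without VC 3 (-0.20) and without VHL-KO 2 (-0.23).

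Per length, SUCLG2 stood at 0.226, 0.246 and 0.255 of the SUCLG1 level in VC and at 0.109, 0.160 and 0.108 in the VHL-KO samples, without overlap (exact permutation p = 0.1, the smallest possible). The log2 difference of -0.97 shrank to -0.48 with GC and length offsets. The ratio of SUCLA2 to SUCLG2 overlapped between groups, with a log2 difference of 0.30 (exact permutation p = 0.3).

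**Figure D2:**
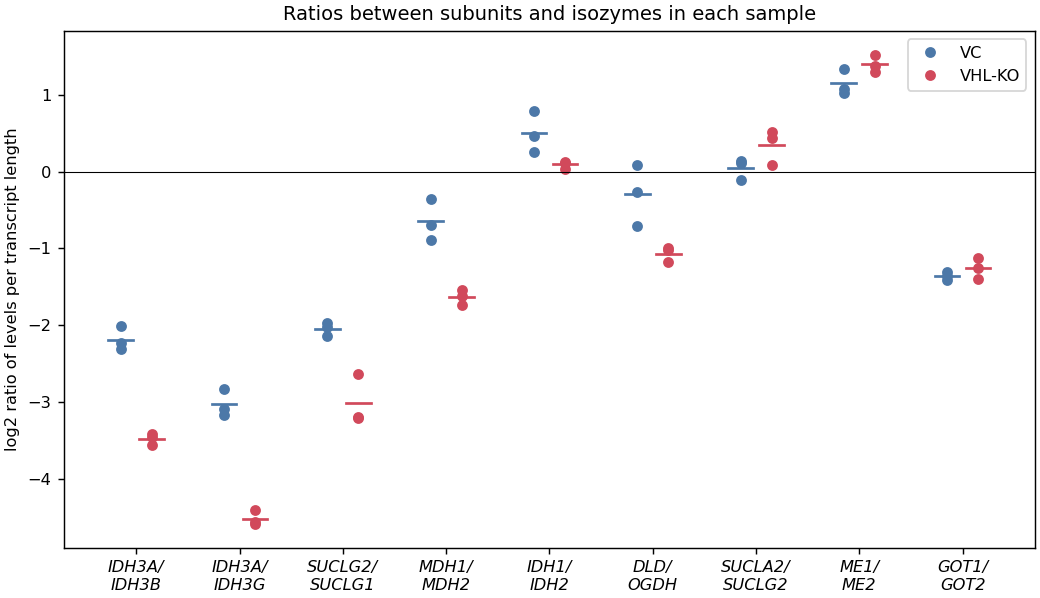
Log2 of the ratio between levels per transcript length of pairs of subunits or isozymes, with a point for each of the 3 VC (blue) and 3 VHL-KO (red) samples and a line at each group's mean. The groups lie apart for IDH3A over IDH3B and IDH3G, SUCLG2 over SUCLG1, MDH1 over MDH2, IDH1 over IDH2 and DLD over OGDH, and overlap for the other 3 pairs. The values carry no GC and length offsets, which shrink several of these differences.

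Succinate dehydrogenase, which has 4 subunits, also serves as complex II of the respiratory chain. Of its genes 2 were called lower, 1 was called higher and 1 was not called. SDHB, the iron-sulfur subunit, was at 78.02, 82.7 and 87.3 CPM in VC and 58.3, 51.9 and 48.97 CPM in VHL-KO samples. Its groups were apart, with a log2 fold change of -0.64 (SE 0.10, adjusted p = 5.47e-06 in edgeR's quasi-likelihood test). SDHC, a membrane anchor, was at 62.4, 55.5 and 66.2 and 46.2, 48.4 and 57.3 CPM. VHL-KO 3 lay above VC 2, so the groups overlapped (-0.28, SE 0.11), and the call was lost with upper quartile factors (-0.17), without VC 1 (-0.26), without VC 3 (-0.20), without VHL-KO 1 (-0.22) and without VHL-KO 2 (-0.25). SDHD, the other anchor, was not called (-0.18, SE 0.19). Its VC samples held both the lowest and the highest of the 6 values, 8.93, 6.63 and 12.7 CPM against 7.90, 8.90 and 8.21 CPM in VHL-KO samples, and its sign turned without VC 3 (0.11) and with the offsets (0.051).

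SDHA, the flavoprotein subunit (chr5:218303-257082), was called higher, but its count is uncertain. It had 180, 148 and 144 reads in VC and 273, 211 and 166 in the VHL-KO samples, or 4.68 ± 0.783 CPM in VC and 9.26 ± 1.30 CPM in VHL-KO cells (0.99, SE 0.18), and the groups did not overlap. Reads that map to several places were discarded before counting, and the near-identical pseudogenes SDHAP1 and SDHAP3 held 1616 reads, against 1122 on SDHA. SDHAP1 had 318, 268 and 298 reads in VC and 233, 211 and 191 in the VHL-KO samples. These are raw counts from libraries of unequal depth, so no direction is read from them. An unnamed gene on the same strand covers a further 21.7% of the SDHA exons. SDHA stood at 3.41 TPM in VC where SDHB stood at 160.4, and its level per length cannot be compared with that of its partners. For none of the other 28 genes did named pseudogenes hold more than 4.10% of the gene's own reads, the value for ME2. Reads common to a gene and its copies were discarded before counting, so a low share does not clear a gene. SDHD has 6 named pseudogenes, and an unnamed gene on the same strand covers 11.4% of its exons.

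Fumarase and the cytosolic malate dehydrogenase were lower and the mitochondrial one was called higher. FH, which hydrates fumarate to malate and is a tumor suppressor of hereditary renal cell cancer, was at 101, 87.8 and 106 CPM in VC and 36.4, 37.8 and 44.3 CPM in VHL-KO samples. The highest VHL-KO sample, VHL-KO 3, was still far below the lowest VC sample, VC 2. The log2 fold change was -1.31 (SE 0.11, adjusted p = 1.39e-10 in edgeR's quasi-likelihood test), and -1.15 with GC and length offsets. MDH1, the cytosolic malate dehydrogenase of the malate-aspartate shuttle, was at 141, 132 and 155 and 82.6, 88.1 and 83.2 CPM, without overlap (-0.75, SE 0.093). MDH2, the mitochondrial enzyme that closes the cycle and the most abundant of the 29 in VC per length (339 TPM), was at 382, 409 and 332 CPM in VC and 463, 429 and 428 CPM in VHL-KO samples.

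MDH2 was called higher by a small margin (0.23, SE 0.091). The call was lost with library size alone (0.041), with no filter beyond 1 count (0.19), without VC 1 (0.25), without VC 3 (0.17), without VHL-KO 1 (0.19) and without VHL-KO 2 (0.25). Per length MDH2 went the other way, from 345, 362 and 309.6 TPM in VC to 308.5, 301 and 307.5 TPM in the VHL-KO samples. It was lower without overlap there, so its direction depends on the scale. IDH3B, IDH3G, OGDH and SDHC, whose groups overlapped in CPM, were also lower without overlap in TPM. TPM carries no TMM factors, and the share of all genes lower without overlap in TPM was not computed. These falls in TPM are therefore not read as a result about these genes. The per-length ratio of MDH1 to MDH2 needs no scaling between samples. It was 0.618, 0.541 and 0.779 in VC and 0.299, 0.344 and 0.326 in the VHL-KO samples, a log2 difference of -0.99 without overlap (exact permutation p = 0.1, the smallest possible).

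Of the 5 genes that join pyruvate, malate and phosphoenolpyruvate to the cycle, 4 were lower and PC was higher. PC, which carboxylates pyruvate to oxaloacetate, was at 22.00, 23.4 and 16.4 CPM in VC 1 to 3 and 38.6, 39.6 and 48.7 CPM in VHL-KO 1 to 3. Every VHL-KO sample lay above every VC sample, with VHL-KO 3 the highest and VC 3 the lowest (1.04, SE 0.13, adjusted p = 2.94e-07 in edgeR's quasi-likelihood test). Malic enzyme ME2, the mitochondrial NAD-linked form that turns malate into pyruvate, was at 40.3, 32.7 and 51.4 CPM in VC and 14.1, 14.9 and 16.1 CPM in VHL-KO samples. In the main fit it had the largest fall of the 29, to 36.2% of the VC level (-1.47, SE 0.14), and its VC samples were spread while the VHL-KO samples lay close together. Without VC 3 IDH3A (-1.33) fell further than ME2 (-1.26), and with GC and length offsets both FH and IDH3A did.

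Cytosolic NADP-linked ME1 was at 31.5, 30.6 and 38.6 and 14.97, 14.3 and 14.7 CPM (-1.20, SE 0.12). Mitochondrial NADP-linked ME3 went from 10.6 ± 0.856 to 7.08 ± 0.331 CPM (-0.59, SE 0.15). Neither overlapped between groups, and the per-length ratio of ME1 to ME2 did, with a log2 difference of 0.25 (exact permutation p = 0.2). With GC and length offsets ME1 and ME2 were at -0.63 and -0.92, still called. PCK2, the mitochondrial enzyme that makes phosphoenolpyruvate from oxaloacetate, was at 20.97, 23.3 and 17.3 CPM in VC and 16.6, 16.3 and 12.9 CPM in VHL-KO samples. Its fall (-0.42, SE 0.14) lost its call with upper quartile factors (-0.31), without VC 2 (-0.30) and without VHL-KO 3 (-0.32), and grew with the offsets (-0.76).

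All 4 genes of glutamate metabolism were lower. GLUD1, the glutamate dehydrogenase that releases 2-oxoglutarate and ammonium, was at 108, 117 and 129 CPM in VC and 63.00, 62.3 and 73.9 CPM in VHL-KO samples. The mitochondrial aspartate aminotransferase, GOT2, was at 205, 219 and 199 and 108, 108 and 116 CPM, and the cytosolic one, GOT1, at 65.2, 72.4 and 61.3 and 40.6, 36.9 and 36.1 CPM. For these 3 all VHL-KO samples lay well below all VC samples. Their fold changes were -0.83 (SE 0.10), -0.91 (SE 0.089) and -0.81 (SE 0.10), with adjusted p of 1.28e-07, 4.28e-09 and 3.26e-07 in edgeR's quasi-likelihood test. With GC and length offsets GLUD1 was at -0.50, still called. GPT2, the mitochondrial alanine aminotransferase, moved less, from 86.8 ± 9.13 to 66.4 ± 5.02 CPM (-0.39, SE 0.10), again without overlap. The per-length ratio of GOT1 to GOT2 was 0.389, 0.405 and 0.376 in VC and 0.459, 0.418 and 0.380 in the VHL-KO samples, and the groups overlapped (exact permutation p = 0.3).

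By compartment, 4 of the 5 genes whose product is found mainly outside the mitochondria (IDH1, MDH1, ME1 and GOT1) were lower and ACO1 was not called. Of the other 24, among them FH, whose product is found both in mitochondria and in the cytosol, 17 were lower, 3 higher and 4 not called, where 31.2% of all genes were lower. Offsets for GC content and length gave 4 lower and 1 higher, ACO1, among the 5, and 20 lower and 3 higher among the 24. Without SDHA over SDHB, 9 per-length ratios were compared between groups, and 6 did not overlap. Among all tested genes taken singly 64.7% did not overlap, and no share was computed for ratios of other gene pairs. The count of 6 is therefore not read as a result about these pairs. Of these 6, MDH1 over MDH2 kept most of its log2 difference under the offsets (-0.86). The other 5 shrank by more than the SD within the groups or, for IDH1 over IDH2, changed sign.

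**Figure D3:**
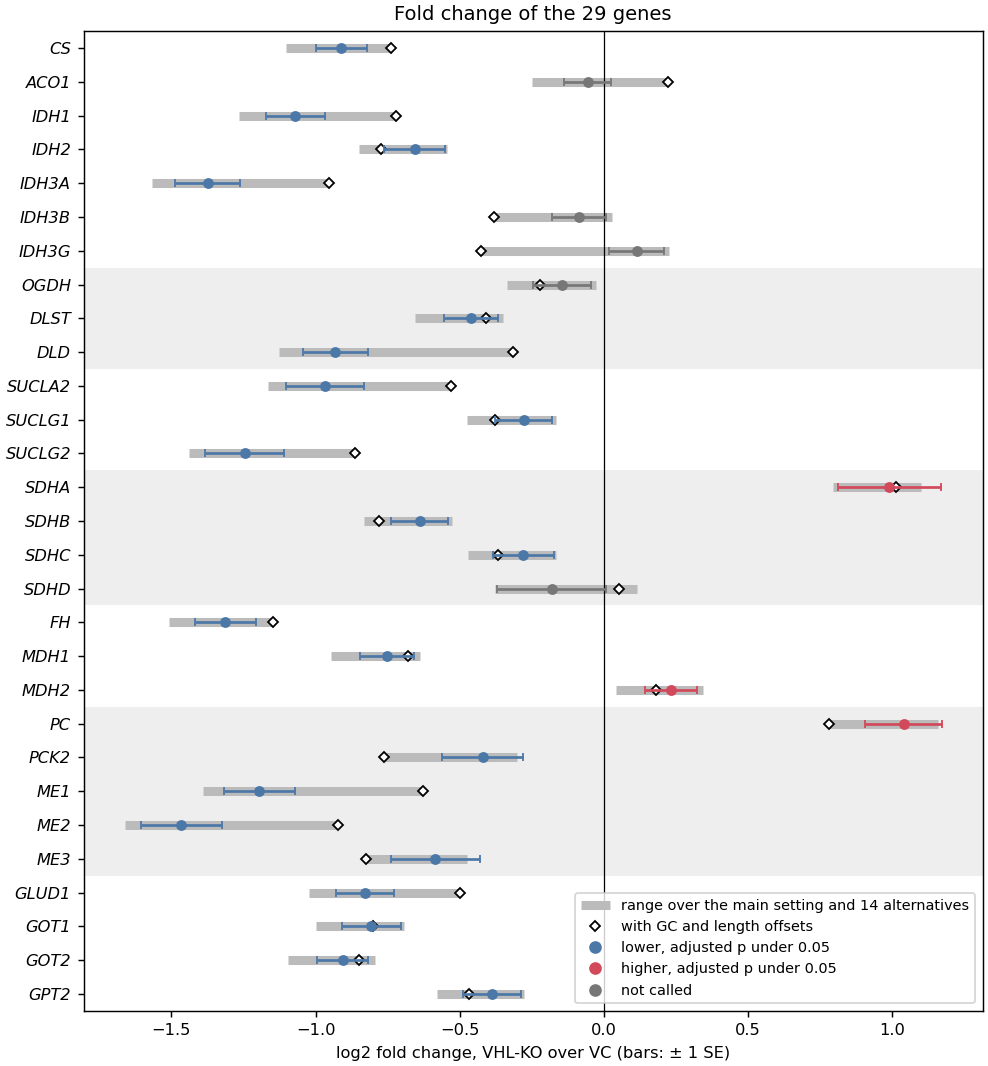
Log2 fold change of VHL-KO over VC for the 29 genes, ordered by role, with bars of 1 SE; blue is lower, red higher and grey not called at an adjusted p under 0.05. Grey bands span the values under 14 alternative settings and diamonds mark those with GC and length offsets; the bands of ACO1, IDH3B, IDH3G and SDHD cross 0.

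Fold change followed base composition over all genes. Across 17355 genes the Spearman correlation of transcript GC content with log2 fold change was 0.322, and across the 29 genes it was 0.683; genes are not independent replicates, and the points share their libraries. The 21 genes called lower had a median GC of 46.0%, the other 8 of 53.5%, and all tested genes of 48.5%. In each range of GC content except the highest, the median of the 29 genes was below that of all genes. From 40 to 45% GC the median was -1.16 for 6 of the 29 and -0.31 for all genes, and from 45 to 50% it was -0.46 for 6 and -0.05 for all. From 55 to 60% it was -0.40 for 6 and 0.28 for all. PC, alone above 60%, was at 1.04 where all genes had a median of 0.50.

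Offsets that remove each library's trend with GC content and length brought the medians of all genes in these ranges to between -0.06 and 0.05. The 29 genes then had a median of -0.53, with 24 called lower and 4 higher, the fourth being ACO1, and SDHD not called. Of all genes 31.3% were called lower and 29.1% higher in the same fit. Medians of the 29 were then -0.53 under 40% GC, -0.79 from 40 to 45%, -0.56 from 45 to 50%, -0.38 from 50 to 55% and -0.61 from 55 to 60%. Such offsets also remove any biological change that follows GC content.

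**Figure D4:**
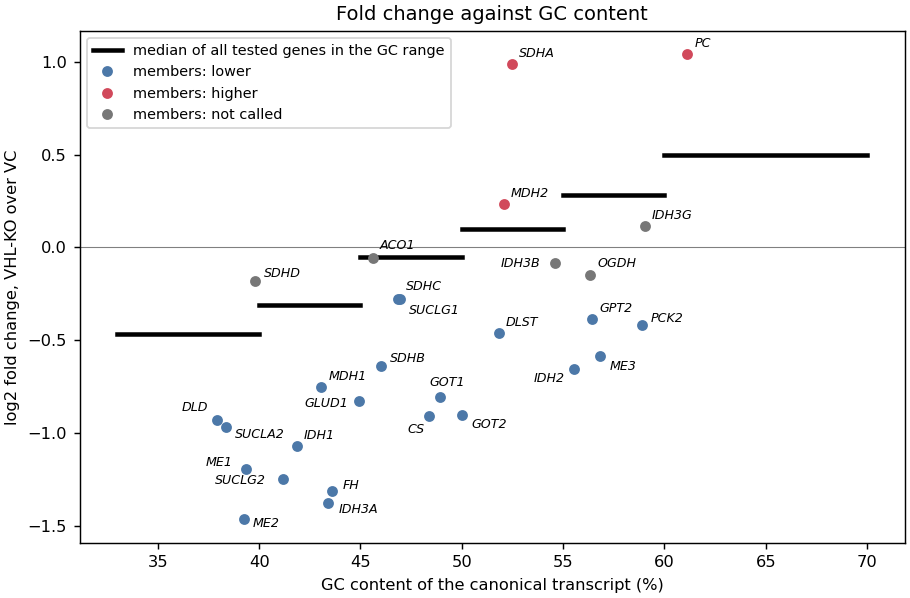
Log2 fold change of VHL-KO over VC for the 29 genes against the GC content of the canonical transcript in percent; blue is called lower, red higher and grey not called, and black bars are the medians of all tested genes in each range of GC content. All blue points lie below the black bar of their range, and the 3 red points lie above theirs.

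Outside the 29, 62 further genes that feed, regulate or use the cycle were examined, of which 55 were tested, 17 higher, 26 lower and 12 not called, with a median of -0.23. Calls in each direction were 28.5% higher and 31.2% lower among all tested genes, so the share of higher calls is near that of all genes. The counts of the smaller lists below are to be read against these shares. Of the 55, 15 were higher and 26 lower with GC and length offsets. Pyruvate entry was lower in 6 of 6 genes. The carrier subunits MPC1 and MPC2 were at -0.65 and -1.14, and the pyruvate dehydrogenase genes PDHA1, PDHB, PDHX and DLAT at -0.64, -0.64, -1.47 and -1.50 on the log2 scale. DLAT, the acetyltransferase core, had 22.2, 22.4 and 26.4 CPM in VC and 8.84, 8.71 and 7.55 CPM in VHL-KO samples. The groups lay wide apart, at -0.94 with GC and length offsets, where PDHA1 was at -0.36, both called. MPC1 lost its call without VHL-KO 3 (-0.44).

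Of the kinases and phosphatases that switch pyruvate dehydrogenase off and on, 3 were higher and 1 lower among 7, or 5 and 1 with GC and length offsets. PDK1, a HIF target known for inhibiting the complex, was at 6.85, 5.52 and 7.85 CPM in VC and 13.5, 13.9 and 16.3 CPM in VHL-KO samples. PDK3 was at 2.11, 2.42 and 3.03 and 21.04, 17.2 and 20.3 CPM. Both rose in every VHL-KO sample, by 1.10 (SE 0.16) and 2.94 (SE 0.17), as did PDK2 by 1.18 (SE 0.10). PDK2 exons are covered to 38.6% by SAMD14 on the other strand.

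Of 4 tested isozymes outside the 29, 1 was higher and 1 lower. OGDHL rose by 1.17 (SE 0.14). GLUD2, an intronless copy of GLUD1, was near the detection limit at 1.07 ± 0.354 CPM in VC and 0.480 ± 0.155 CPM in VHL-KO cells (-1.16, SE 0.42). It lost its call without VC 3 (-0.83), VHL-KO 1 (-1.06) or VHL-KO 2 (-1.02). Reads that map to GLUD1 and GLUD2 alike were discarded before counting, so the counts of both genes may lack reads. PCK1 and GOT1L1 had no reads.

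Among 21 genes that take up or use glutamine and glutamate, 19 were tested, 4 were higher and 12 lower, with a median of -0.87, or -0.42 with GC and length offsets. GLUL, glutamine synthetase, and PRODH had no reads in any sample, which allows up to 3 reads each, or 0.141 CPM in the shallowest sample, counting error alone. Whether reads of such genes were lost in annotation or counting was not tested, so a 0 is not read here as absence. GLS2 was called higher from few reads, 17, 4 and 5 in VC and 21, 20 and 20 in the VHL-KO samples, with 77.1% of its exons covered on the other strand.

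The largest fall among these in the main fit was that of PSAT1, the phosphoserine aminotransferase that spends glutamate in serine synthesis. It was at 96.03, 106 and 110.5 CPM in VC and 27.7, 28.97 and 26.9 CPM in VHL-KO samples, or 26.7% of the VC level (-1.91, SE 0.10, adjusted p = 7.61e-14 in edgeR's quasi-likelihood test). Among the genes of this list that fell at least 2-fold were 5 that take the amide nitrogen of glutamine for nucleotides, CTPS1 (-1.33) and CAD (-1.26) for pyrimidines and PFAS (-1.42), PPAT (-1.09) and GMPS (-1.09) for purines. CAD went from 189 ± 17.2 to 78.8 ± 7.04 CPM and CTPS1 from 154 ± 1.92 to 61.6 ± 3.79 CPM, without overlap. With the offsets PPAT and GMPS were at -0.46 and -0.59, still called. These 5 and the wider group of 9 glutamine amidotransferases were put together after the values were seen, and of the 9, 7 were lower and 2, GFPT2 (0.69) and NADSYN1 (0.58), higher. ASNS, asparagine synthetase, fell from 0.837 ± 0.353 to 0.277 ± 0.0817 CPM and lost its call without VC 3 (-1.33); a gene on the same strand covers 49.3% of its exons.

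Carriers, assembly factors and side branches held calls in both directions in the main fit. Among all tested genes 28.5% were called higher and 31.2% lower, or 29.1% and 31.3% with GC and length offsets. In the main fit the carriers' share of higher calls is near that of all genes. Of 7 tested mitochondrial carriers 2 were higher and 3 lower, or 0 and 4 with GC and length offsets, with SLC25A13, an aspartate-glutamate carrier, at -1.14 (SE 0.10). Of 7 genes for succinate dehydrogenase assembly and lipoylation 4 were higher, or 3 with the offsets, and 1, SDHAF3, lower (-1.24, SE 0.21). Of 5 tested genes of citrate, 2-hydroxyglutarate and GABA metabolism 3 were higher and 2 lower, or 2 and 1 with the offsets. ACLY, which splits exported citrate into acetyl-CoA and oxaloacetate, went from 530.3 ± 37.5 to 246 ± 28.2 CPM (-1.11, SE 0.10). GAD1, a glutamate decarboxylase that makes GABA, rose from 0.935 ± 0.101 to 4.70 ± 0.0734 CPM (2.33, SE 0.23), and ADHFE1, which forms 2-hydroxyglutarate from 2-oxoglutarate with 4-hydroxybutyrate, from 0.267 ± 0.0344 to 1.36 ± 0.149 CPM (2.34, SE 0.42), with a same-strand gene over 42.6% of its exons.

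**Figure D5:**
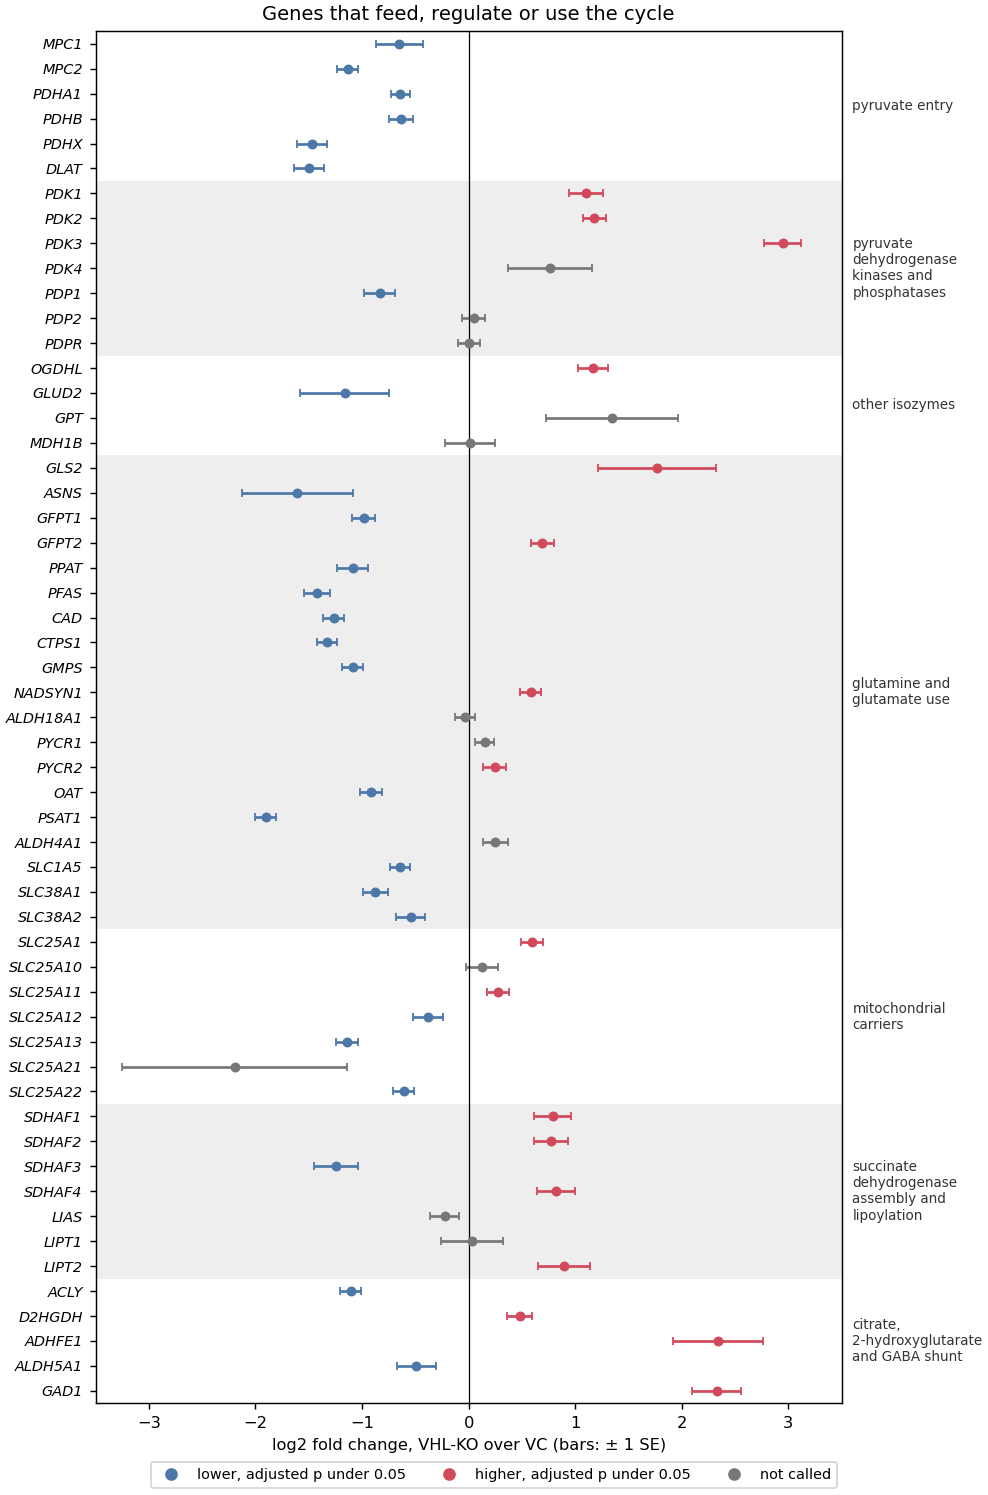
Log2 fold change of VHL-KO over VC for the 55 tested genes that feed, regulate or use the cycle, grouped by role, with bars of 1 SE; blue is lower, red higher and grey not called at an adjusted p under 0.05. The 6 genes of pyruvate entry all lie below 0, PDK1, PDK2 and PDK3 lie above it, and PSAT1, PFAS, CTPS1 and CAD lie below -1.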

How the data were processed

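RNA-seq of 3 VC and 3 VHL-KO samples of Caki-1 was grouped by the authors' labels. Per the labels and the study's methods, the authors trimmed reads with TrimGalore and Cutadapt, kept those of at least 20 nt, aligned them with STAR to GRCh38.p13, kept reads at a single location with SAMtools and counted them per gene with HTSeq. The deposited values are these raw counts, neither normalized nor filtered. The annotation release, strandedness, counting mode and tool versions are not given in the sources used here.

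Genes with at least 10 reads in any of the 6 samples (17401 of 60708) were tested with edgeR 4.0.16 in R 4.3.3 (TMM factors, quasi-likelihood F test, two-sided, Benjamini-Hochberg adjustment, threshold 0.05). The SE is the absolute log2 fold change divided by the square root of F. TPM and GC content used the canonical transcript of GENCODE 44, which 17355 tested genes matched. Ratios were tested by exact permutation over samples. Total counts between 22628246 and 34881739 put a count of 0 at no more than 3 reads, counting error alone.

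All 29 genes are described. Of the related genes, those with an adjusted p under 0.05 and at least a 2-fold change are named, with GLUL, PDK1, ACLY and the genes of pyruvate entry. Named exceptions are stated as chosen after their values were seen. Some genes of the related and marker lists are not reported here, and the counts and sums of these lists leave them out. Members and lists were chosen with earlier results of these data known. Promoters are from RefSeq. The 14 alternatives changed the scaling (upper quartile factors, relative log expression, or the library size by itself), the filter (1 count anywhere, or 10 reads in all samples), the tool (DESeq2 1.42.0, Wald test) and the samples (each left out in turn), or added the replicate number as a block or offsets per library from natural splines of GC content and length (5 degrees of freedom, from genes with a mean of at least 1 CPM). The test was also run on simulated data with known changes, and no result of that run is given or relied on here.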

Additional observations from a re-analysis of the deposited data

How the results depend on the processing

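The 29 genes gave 406 fold changes over 14 alternatives, of which 375 kept their direction and their side of the threshold, as did 20 genes throughout. Of the rest, 18 lost their call (SUCLG1, SDHC, MDH2 and PCK2), 6 gained one in the same direction (ACO1, IDH3B, IDH3G and OGDH) and 7 changed sign (ACO1, IDH3B, IDH3G and SDHD). Genes lower ranged from 18 to 24 and genes higher from 2 to 4. Their median of -0.64 became -0.53 with upper quartile factors, -0.83 with library size alone and -0.53 with GC and length offsets, and lay between -0.70 and -0.56 when single samples were left out. VHL, at -0.33, was at -0.22 and -0.038 with upper quartile factors and offsets, at -0.53 with library size alone and between -0.40 and -0.28 when samples were left out. Upper quartile factors turned the sign of ACO1 (0.055), IDH3B (0.026) and CDH6 (0.088), and library size alone that of IDH3G (-0.079). GC and length offsets turned ACO1 (0.22), IDH3G (-0.43), SDHD (0.051), CDH6 (0.49) and KRT18 (-0.12). They also turned the log2 difference of IDH1 over IDH2, from -0.41 to 0.054, and shrank that of DLD over OGDH from -0.77 to -0.095. CDH6 was at 0.0051 with at least 10 reads in every sample. With single samples left out, SDHD ranged from -0.36 to 0.11 and CDH6 from -0.081 to 0.095. The cause of these shifts was not tested.

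The replicate numbers did not pair the samples: deviations of same-numbered samples from their group means correlated at 0.0627, -0.000448 and 0.0283. With the replicate block 10284 genes were called, against 10394 without it, and among the 29 genes 21 were lower and 3 higher, with a median of -0.64. Samples within a group were further apart than counting noise (chi-square per degree of freedom 6.43 to 35.3). GLS2, GLUD2 and ASNS were among the genes with few reads, and 7 of the 62 related genes could not be tested. The effect of depth on the calls was not tested.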
